A study of Mus musculus with 2 samples.

Results

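The 5 genes of the oligoadenylate synthetase family, Oas1a, Oas2, Oas3, Oasl1 and Oasl2, were followed in single tumor mononuclear phagocytes (TMPs) with and without Fcmr, the receptor for the Fc part of IgM. They were chosen by symbol, and all 5 had a row among the 27998 genes of the count tables. The cells were MerTk+ CD64+ TMPs sorted by flow cytometry from B16 melanomas, a transplanted mouse melanoma line, grown in C57Bl/6 mice. There was 1 droplet-based library of RNA 3' ends from Fcmr+/+ mice, the wild-type control, and 1 from Fcmr-/- mice, which lack the gene in every cell type. The study used littermates matched for sex, age and cage, without giving an age for these mice or the number pooled in each library. No other allele or treatment separated the groups in the sources used here.

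Oligoadenylate synthetases are interferon-induced proteins that sense double-stranded RNA inside the cell. When bound to it, the active enzymes join ATP into short adenylate chains, a second messenger that leads to the decay of viral and cellular RNA and to a stop of protein synthesis. In macrophages the family is a standard readout of the response to type I interferon, and it also responds to type II interferon. Oas1a, Oas2 and Oas3 encode enzymes that differ in the number of synthetase units in the protein. Oasl1 encodes a relative without synthetase activity that is known to hold back translation of the Irf7 mRNA. Oasl2 encodes another member of the family, and the proteins of Oasl1 and Oasl2 both carry ubiquitin-like repeats.

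After the study's limits on genes and mitochondrial RNA, 6352 Fcmr+/+ cells held 128408544 unique molecular identifiers (UMIs, each counting 1 captured RNA molecule) and 7999 Fcmr-/- cells held 124630621. A median cell had 17974 UMIs in the Fcmr+/+ library and 12911 in the Fcmr-/- library, and 73 cell barcodes occurred in both. Fcmr itself had 7 and 6 UMIs, too few to check the genotype labels. All 9 macrophage markers listed were present, at a summed 16927 and 16936 CPM (UMIs of a gene per 1000000 UMIs of the group), and Mertk and Fcgr1, which encodes CD64, had 62.8 and 250.4 CPM in Fcmr+/+ cells against 48.7 and 394 in Fcmr-/- cells. Since each genotype had a single library, variation among mice could not be measured, no test was made, and genotype cannot be told apart from other differences between the libraries. Intervals are exact 95% intervals and cover counting error only.

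All 5 genes lie on mouse chromosome 5 (GRCm38). Oas2 (ENSMUSG00000032690, chr5:120730333-120749853), Oas3 (ENSMUSG00000032661, chr5:120753098-120777661) and Oas1a (ENSMUSG00000052776, chr5:120896256-120907521) are on the minus strand, with other Oas1 genes between Oas3 and Oas1a. Oasl2 (ENSMUSG00000029561, chr5:114896936-114912234) and Oasl1 (ENSMUSG00000041827, chr5:114923240-114937915) are neighbors on the plus strand. RefSeq promoter sequences of GRCm38.p6 were matched by symbol for 4 of the 5 genes, Oas2 being the exception. The 250 bases before each start site are shown because these genes were higher together in part of the data while their upstream sequences differ. Capitals mark 2 motifs, searched on both strands. The first is the core of the interferon-stimulated response element, written here as GAAA repeated after a gap of 2 bases, the binding sequence of the type I interferon factor ISGF3 and of interferon regulatory factors. The other is the gamma-activated site, TTCNNNGAA, known from genes induced by type II interferon.
Oas1a: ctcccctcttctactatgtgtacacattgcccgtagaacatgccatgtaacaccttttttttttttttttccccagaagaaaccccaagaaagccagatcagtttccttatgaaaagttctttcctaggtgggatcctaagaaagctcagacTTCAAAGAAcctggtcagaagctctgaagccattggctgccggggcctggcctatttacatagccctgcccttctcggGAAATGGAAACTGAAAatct
Oas3: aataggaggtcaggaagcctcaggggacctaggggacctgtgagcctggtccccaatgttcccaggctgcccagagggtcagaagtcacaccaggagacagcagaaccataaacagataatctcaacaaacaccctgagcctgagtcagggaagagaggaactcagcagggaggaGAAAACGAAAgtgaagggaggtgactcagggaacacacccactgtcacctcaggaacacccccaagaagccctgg
Oasl1: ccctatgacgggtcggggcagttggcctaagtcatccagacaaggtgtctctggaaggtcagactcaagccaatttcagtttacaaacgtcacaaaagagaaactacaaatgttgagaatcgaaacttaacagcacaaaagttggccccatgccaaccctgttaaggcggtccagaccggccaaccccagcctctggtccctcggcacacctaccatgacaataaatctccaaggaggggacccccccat
Oasl2: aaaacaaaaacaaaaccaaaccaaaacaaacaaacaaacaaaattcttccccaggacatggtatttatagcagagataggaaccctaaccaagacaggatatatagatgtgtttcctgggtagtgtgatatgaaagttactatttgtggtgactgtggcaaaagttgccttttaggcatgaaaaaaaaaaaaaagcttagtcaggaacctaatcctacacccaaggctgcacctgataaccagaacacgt
These are chr5:120907526-120907775 for Oas1a and chr5:120777660-120777909 for Oas3, both on the minus strand, and chr5:114922990-114923239 for Oasl1 and chr5:114896684-114896933 for Oasl2, both on the plus strand. The Oas1a sequence held 2 overlapping matches of the response element core, from -20 to -11 and from -14 to -5 relative to the start site, and 1 match of the gamma-activated site from -98 to -90. The Oas3 sequence held 1 match of the core, from -75 to -66. No match of either motif was found in these bases of Oasl1 and Oasl2, which says only that these letters are not in this window. Of 32851 promoter sequences of the same length in the table, 2.98% held the core and 7.02% the gamma-activated site.

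The first question was whether the family was read more in TMPs lacking Fcmr. All 5 genes had a higher level in the Fcmr-/- library, and Oas3, Oas1a and Oasl2 were 1.85 to 2.09 times as high. Over the 8701 genes with at least 5 CPM in either library, 50.5% had a higher level in Fcmr-/- cells. Of them 2.4% were at least 1.5-fold higher and 1.69% at least 1.5-fold lower, against 3 and 0 of the 5 synthetase genes. Here and below, genes past a fold were counted after adding 1 CPM. The median log2 ratio of Fcmr-/- to Fcmr+/+, taken after adding 1 CPM, was 0.87 for the 5 genes and 0.00 for all 8701. Summed over the 5 genes, the level was 121 CPM in Fcmr+/+ cells and 201 CPM in Fcmr-/- cells, a log2 ratio of 0.73.

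Oas3, the enzyme known for long double-stranded RNA, had 2171 and 4400 UMIs in the Fcmr+/+ and Fcmr-/- libraries, or 16.9 CPM (interval 16.2 to 17.6) and 35.3 CPM (interval 34.3 to 36.4). Its ratio of 2.09 (interval 1.98 to 2.20) was the only 1 of the 5 at or above 2-fold, a size reached upward by 0.793% of all genes. Oas1a, a mouse counterpart of the human OAS1 enzyme, had 1303 and 2422 UMIs. Its level was 10.1 CPM in Fcmr+/+ cells and 19.4 CPM in Fcmr-/- cells, a ratio of 1.92 (interval 1.79 to 2.05). At the UMI totals of these libraries counting intervals are narrow, so intervals of the 2 libraries that lie apart are not read as a trait of the family. The share of all genes with intervals apart was not counted.

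Oasl2 was the most abundant member, with 6714 UMIs in the Fcmr+/+ library and 12044 in the other. Its level of 52.3 CPM in Fcmr+/+ cells stood against 96.6 CPM in Fcmr-/- cells, a ratio of 1.85 (interval 1.79 to 1.90). The enzyme gene Oas2 differed less, with 11.3 CPM and 14.9 CPM, a ratio of 1.32 (interval 1.23 to 1.42). Oasl1, the relative that acts on Irf7 mRNA, differed least, with 3908 and 4327 UMIs. Its 30.4 CPM in Fcmr+/+ cells and 34.7 CPM in Fcmr-/- cells gave a ratio of 1.14 (interval 1.09 to 1.19). The log2 ratio of Oasl1 was 0.18 over all cells but -0.078 in cells with 10000 to 20000 UMIs, so its direction depended on which cells were compared. Counts of 3' ends do not scale with transcript length, but capture may differ between genes, so the order of levels between genes is a description of these libraries only.

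**Figure D1:**
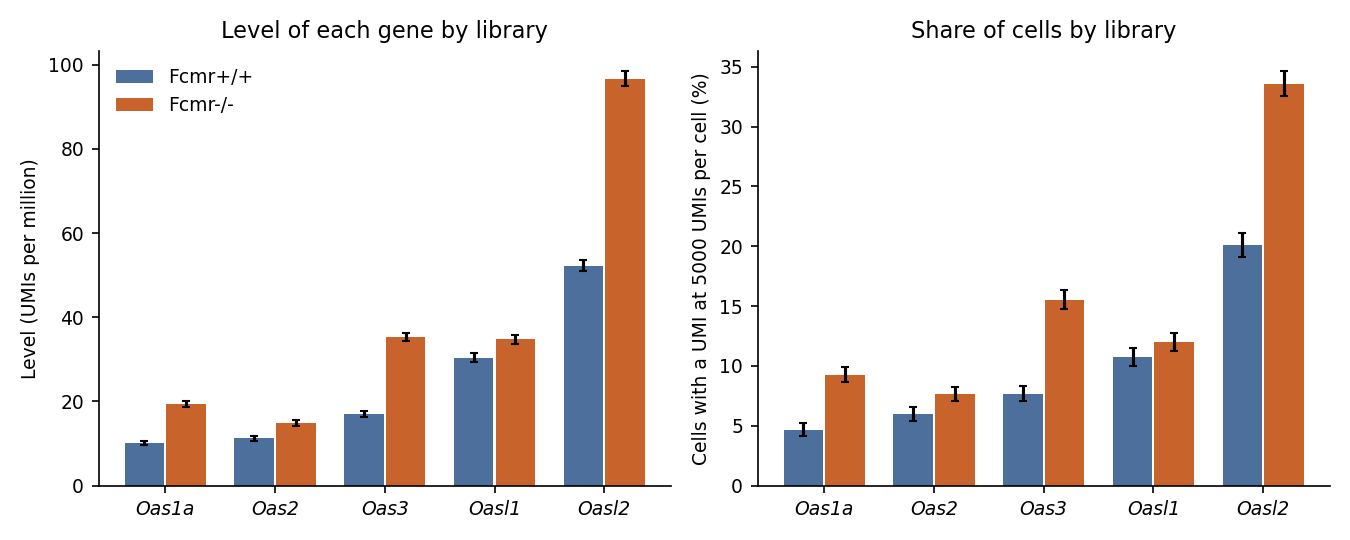
Levels of the 5 synthetase genes (left, CPM) and the share of cells with a UMI after drawing each cell down to 5000 UMIs (right, percent), in the Fcmr+/+ library (blue) and the Fcmr-/- library (orange), 1 library each. Bars are the library values and error bars exact 95% counting intervals. Oas1a, Oas3 and Oasl2 stand clearly apart between the libraries and Oasl1 stands least apart, at 30.4 and 34.7 CPM.

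Higher levels went with more cells in which the genes were found, except that this was unclear for Oasl1. Each cell was drawn down to 5000 UMIs, since Fcmr+/+ cells were deeper, and no cell had fewer. At this depth Oasl2 was found in 20.1% of Fcmr+/+ cells and 33.6% of Fcmr-/- cells, Oas3 in 7.68% and 15.5%, and Oas1a in 4.68% and 9.25%. Oas2 was found in 5.98% and 7.66%. Oasl1 was found in 10.7% (9.99 to 11.5) and 11.99% (11.3 to 12.7), with intervals that overlapped. At least 1 of the 5 genes had a UMI in 35.6% of the Fcmr+/+ library (34.4 to 36.8) and 50.5% of the Fcmr-/- library (49.4 to 51.6), a difference of 14.9 percentage points (interval 13.3 to 16.5). Without drawing down, the shares were 44.7% and 57.0% for Oasl2, 21.1% and 30.6% for Oas3, 17.0% and 23.8% for Oas1a, 18.3% and 18.7% for Oas2, and 27.9% and 25.8% for Oasl1. The sort holds no cell type known to lack these genes, so the share of cells due to free RNA is not known.

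The other members of the Oas1 group were nearly silent. Of 7 such genes on the list, Oas1b had no row, and none of the other 6 reached 5 CPM. Oas1g, a close copy of Oas1a with synthetase activity, had 2.17 CPM in Fcmr+/+ cells and 4.56 CPM in Fcmr-/- cells. Oas1c had 2.80 and 2.60 CPM, Oas1d had 1 UMI in all, and Oas1e, Oas1f and Oas1h had 0 UMIs in both libraries, which allows up to 3 UMIs in each. Of the 50-base words in the last 500 bases of the longest Oas1a transcript, 56.1% also occurred in Oas1g transcripts, so the division of reads between these copies is uncertain. The last 500 bases of Oas2, Oas3, Oasl1 and Oasl2 shared no such word with another family member.

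Genes that act on the synthetase product or beside it did not stand apart between the libraries by 1.5-fold. Pde12 and Akap7, which degrade the adenylate chains, had 14.9 and 20.1 CPM in Fcmr+/+ cells against 14.0 and 21.9 CPM in Fcmr-/- cells. Abce1, a ribosome recycling factor, had 37.6 and 41.5 CPM. In cells drawn down to 5000 UMIs, the 5 genes were found with Ifit1, an antiviral effector, 1.49 to 3.22 times as often as the product of their shares in the Fcmr+/+ library and 1.68 to 2.65 times in the Fcmr-/- library. Oas1a had the lowest and Oasl1 the highest ratio in both.

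Other sensors of RNA had a median log2 ratio of 0.41, with 1 of 8 genes at least 1.5-fold higher after adding 1 CPM. This was Zbp1, a sensor of nucleic acids in the Z form, with 47.0 CPM in Fcmr+/+ cells and 127 CPM in Fcmr-/- cells. Dhx58, the helicase LGP2, had a log2 ratio of 0.55, Ifih1, the helicase MDA5, 0.19, and Mavs, the adaptor of MDA5, -0.10. Type I interferon receptor and signaling genes also had a median of 0.41, and 4 of 9 were at least 1.5-fold higher. Irf7, the factor whose mRNA Oasl1 acts on, had 69.7 and 139.5 CPM, whereas the receptor chain Ifnar2 had a log2 ratio of -0.19 and the kinase Jak1 0.06. The type II receptor and signaling list had a median of 0.08, with 0 of 4 past 1.5-fold.

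Among interferon-induced families, the synthetase median lay between those of the Ifit genes and the guanylate-binding proteins. The Ifit and antiviral effector list had a median log2 ratio of 0.51, with 3 of 8 genes past 1.5-fold, from -0.15 for Ifit1 to 0.87 for Isg15. The guanylate-binding proteins, which are strongly induced by type II interferon, had a median of 1.90, and all 8 with at least 5 CPM in either library were past 1.5-fold. These 2 lists and that of the RNA sensors each held at least 1 gene that reached 5 CPM only in Fcmr-/- cells. Gbp4 was such a gene, with 2.24 CPM in Fcmr+/+ cells and 29.5 CPM in Fcmr-/- cells. This limit favors higher medians and counts, so the order of the families is a description. Of the interferon genes, only Ifnb1 reached 5 CPM, with 10.3 CPM in Fcmr+/+ cells and 3.97 CPM in Fcmr-/- cells. Ifng had 1 UMI in 1 Fcmr+/+ cell and 41 UMIs in 9 Fcmr-/- cells. The 7 T and NK cell markers found in the tables summed to 1.11 CPM in Fcmr+/+ cells and 15.6 CPM in Fcmr-/- cells, and 37 and 134 cells held a UMI of them. Without those cells the median log2 ratio of the 5 synthetase genes was 0.88.

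The second question was in which macrophage states the family was read. Cells of both libraries were clustered together without any Oas or Oasl gene, which gave 11 states, numbered by size. State 9 carried a type I interferon-high profile, led by Rsad2, Ifit1bl1 and Cmpk2, with 220 Fcmr+/+ and 642 Fcmr-/- cells. All 5 genes were highest there in both libraries, although the interval of Oas1a in Fcmr+/+ cells, 18.9 to 31.0 CPM, overlapped that of state 4. Oasl2 had 279.8 CPM in Fcmr+/+ cells and 363 CPM in Fcmr-/- cells of this state, Oas3 109.9 and 154 CPM, and Oas1a 24.4 and 43.9 CPM. Oas2 had 46.6 and 39.1 CPM, with intervals that overlapped. Oasl1 had 309 CPM in Fcmr+/+ cells and 165 CPM in Fcmr-/- cells. State 9 was clustered on other interferon genes that tend to be read with the family, so its high place is a description. Its cells were shallow, with medians of 9876 UMIs in Fcmr+/+ and 8396 UMIs in Fcmr-/- cells, and only state 6 had a lower median in Fcmr-/- cells, at 7944 UMIs.

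**Figure D2:**
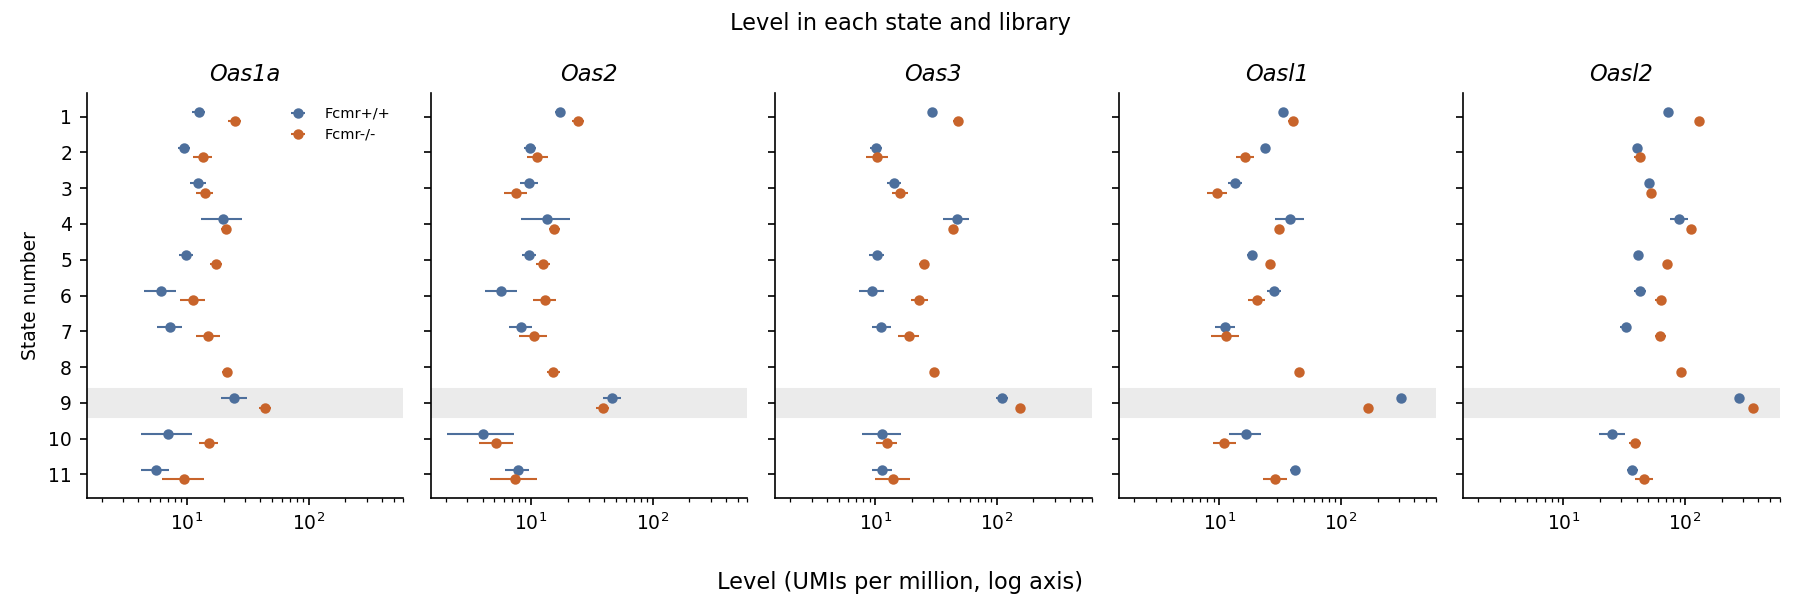
Level of each synthetase gene (CPM, log axis) in the 11 states of both libraries, with exact 95% counting intervals; Fcmr+/+ in blue, Fcmr-/- in orange, and only Fcmr-/- shown for state 8, which had 35 Fcmr+/+ cells. The shaded row is state 9, where each gene peaks, with Oasl1 at 309 CPM in Fcmr+/+ and 165 CPM in Fcmr-/- cells.

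The members drew on state 9 to different degrees. It held 3.46% of Fcmr+/+ cells and 2.14% of their UMIs, and 8.03% of Fcmr-/- cells and 5.30% of their UMIs. Of all Oasl1 UMIs, 21.8% in the Fcmr+/+ library and 25.3% in the Fcmr-/- library came from this state. For Oas3 the shares were 13.9% and 23.1%, and for Oasl2 11.5% and 19.9%. The enzyme genes Oas2 and Oas1a drew least on it, with 8.85% and 13.9% for Oas2 and 5.14% and 11.97% for Oas1a. Most UMIs of each gene lay in cells outside the type I interferon-high state. Without state 9, the median log2 ratio of the 5 genes was 0.78 and that of their sum 0.66.

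Outside state 9, the levels followed the states more loosely. State 1 (Ccl17, Cd209a, Il1r2), which held markers of monocytes and of MHC class II-high macrophages, came next for Oasl2 in Fcmr-/- cells, with 130.5 CPM against 72.7 CPM in Fcmr+/+ cells. State 4 (Ly6i, Ly6c2, Ly6a), 95.4% of whose cells were Fcmr-/-, had 89.4 CPM of Oasl2 in its 76 Fcmr+/+ cells and 112 CPM in its Fcmr-/- cells. State 8 (Iigp1, Serpina3g, Cxcl9), with 877 Fcmr-/- cells, had 93.1 CPM of Oasl2 and 45.1 CPM of Oasl1. The lowest Oas2 and Oasl2 levels were in state 10 (Plpp3, Mfge8, Npy), at 4.06 and 25.1 CPM in Fcmr+/+ cells and 5.19 and 39.0 CPM in Fcmr-/- cells. Oas1a was lowest in state 11 (Adm, Rragd, Cdk18) in both libraries, at 5.53 and 9.50 CPM, and Oasl1 in state 7 (Amica1, Zmynd15, Acp5) at 11.2 CPM in Fcmr+/+ cells and state 3 (Cxcl3, Csf3, Serpinb2) at 9.57 CPM in Fcmr-/- cells.

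The third question was whether the difference between the libraries held within states. In the 10 states with at least 50 cells of each library, Oas1a had the higher level in Fcmr-/- cells in 10 of 10 states and Oasl2 in 10 of 10, with an interval of the ratio above 1 in 8 states for each. Oas3 was higher in 9 of 10 states, 5 of them with an interval above 1, and Oas2 in 7 of 10, 3 of them with an interval above 1. Oasl1 went the other way in most states. It was lower in Fcmr-/- cells in 7 of 10 states, with an interval below 1 in 6 of them, and its interval was above 1 only in states 1 and 5. Over all 50 pairs of gene and state, 39 were higher in Fcmr-/- cells, 26 with an interval above 1 and 6 with an interval below 1. Over the 87010 pairs of the 8701 genes, 54.2% were higher, 17.5% had an interval above 1 and 14% an interval below 1.

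**Figure D3:**
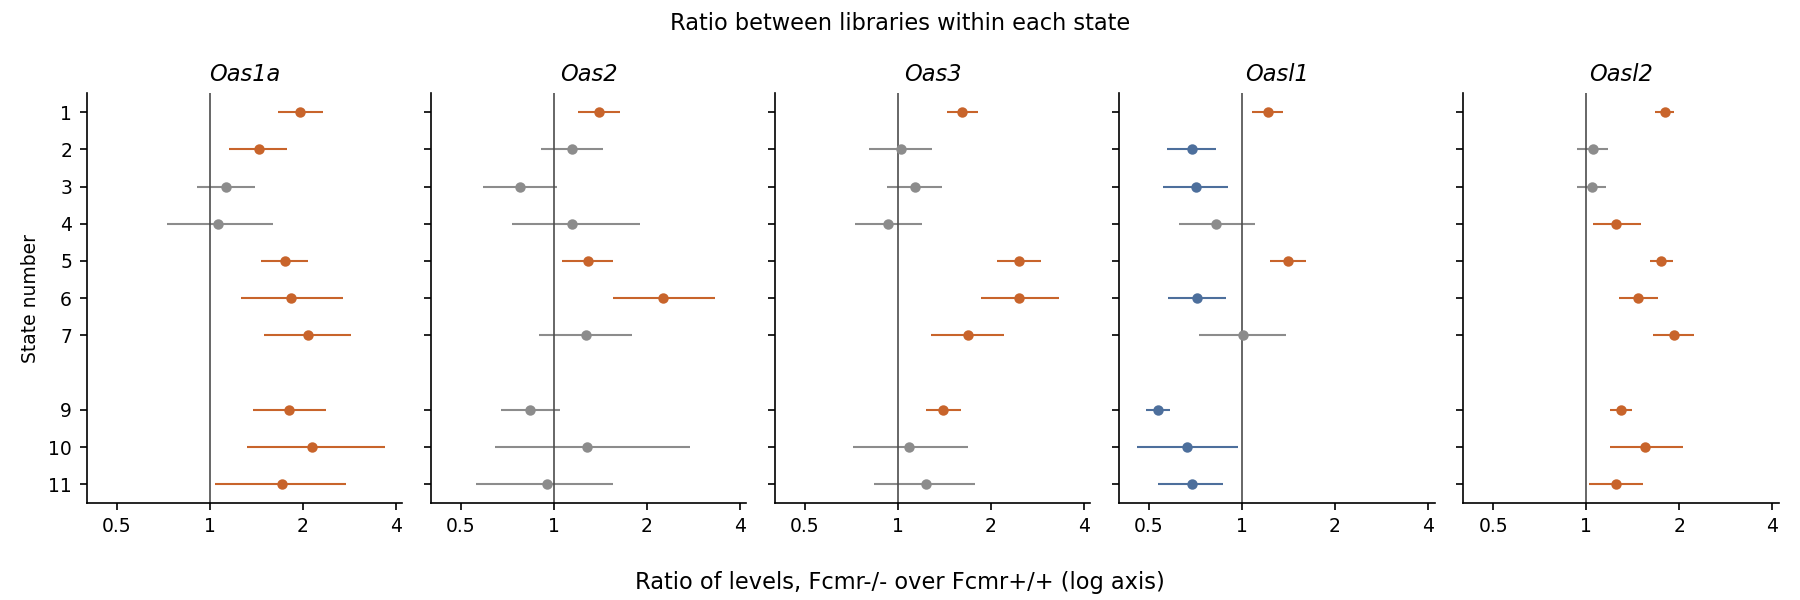
Ratio of the level in Fcmr-/- over Fcmr+/+ cells (log axis) within each state that held at least 50 cells of each library, with exact conditional 95% intervals. Orange intervals lie above 1, blue ones below 1 and gray ones hold 1. Oas1a and Oasl2 lie to the right of 1 in every state drawn, while Oasl1 has 6 blue intervals, with a ratio of 0.535 in state 9.

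The lowest ratio of Oasl1 was in state 9, at 0.535 (interval 0.489 to 0.586) with 850 Fcmr+/+ and 1093 Fcmr-/- UMIs. In cells drawn down to 5000 UMIs, 58.2% of Fcmr+/+ cells and 41.7% of Fcmr-/- cells of this state held an Oasl1 UMI. The ratio was 0.540 in the cells of the state with 10000 to 20000 UMIs and 0.572 (interval 0.518 to 0.632) in those without an Ifnb1 UMI. In the same state Ifit1 had 1370 and 681 CPM, Ifit3 612 and 431 CPM, and Ifnb1 107 and 45.4 CPM, all lower in Fcmr-/- cells. Irf7 had 475 and 558 CPM there. Oas3 had a ratio of 1.40 (interval 1.23 to 1.60) and Oasl2 1.30 (interval 1.196 to 1.41) in state 9. In its cells with 10000 to 20000 UMIs the Oas3 ratio was 1.11 (interval 0.907 to 1.36) and the Oasl2 ratio 1.17 (interval 1.02 to 1.35). Oas2 had 0.839 (interval 0.676 to 1.04) in the state and 0.701 (interval 0.472 to 1.05) within those depths. Oas1a had 1.80 (interval 1.38 to 2.39), and 1.37 (interval 0.913 to 2.09) within those depths.

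In state 5, the dividing cells (Cenpf, Nusap1, Prc1), all 5 genes had intervals above 1. Oas3 had 10.3 CPM in Fcmr+/+ cells and 25.3 CPM in Fcmr-/- cells, a ratio of 2.46 (interval 2.10 to 2.90). Oasl1 had 18.6 and 26.3 CPM there, a ratio of 1.41 (interval 1.23 to 1.61), and Oasl2 40.7 and 71.1 CPM. State 1 was the only other state with all 5 intervals above 1. Pooled over the 10 states compared, 17.5% of all gene and state pairs had such an interval, and no share was counted for single states. Intervals are narrower in states with more UMIs, so the pooled share is not a background for states 1 and 5. In state 6, whose leading genes were Hbb-bs, Hba-a1 and Hba-a2 and which carried 5 hypoxia markers, Oas3 had 9.34 and 23.1 CPM and Oas2 5.71 and 12.9 CPM, while Oasl1 had 28.4 CPM in Fcmr+/+ cells and 20.3 CPM in Fcmr-/- cells. Ifnb1 had 52.4 and 8.42 CPM in this state, and Ifit1 190.0 and 65.9 CPM. Oas2, Oas3 and Oasl2 did not stand apart between the libraries in states 2 (Tfrc, Cnrip1, Gpr34) and 3. In state 3, inflammatory-like by its markers, Oasl2 had 50.8 and 52.9 CPM and Oas3 14.3 and 16.1 CPM, with intervals of the ratio that held 1.

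At an equal mix of states the libraries differed less. When each state was given its share of the UMIs of both libraries together, the log2 ratio was 0.60 for Oas1a, 0.49 for Oasl2, 0.46 for Oas3 and 0.22 for Oas2. For Oasl1 it was -0.32, the reverse of its direction over all cells. The sum of the 5 genes had a log2 ratio of 0.73 over the same 10 states before weighting and 0.31 after it. Of the 5 genes 1, Oas1a, remained at least 1.5-fold higher, and the share of all genes was not counted at this weighting. State 8 was left out, and state 4 entered with only 76 Fcmr+/+ cells. With all listed interferon genes also left out of the clustering, Oasl2 was higher in 11 of 11 states, Oas1a in 10, Oas3 in 9 and Oas2 in 8. Their intervals lay above 1 in 9, 7, 7 and 4 states, and that of Oas3 lay below 1 in 1 state. Oasl1 was lower in 8 of 11, 5 of them with an interval below 1, and had an interval above 1 in 1 state. The share of all genes was not counted over these states, so these counts describe the 5 genes and cannot be set against all genes. Equal weighting of those states gave log2 ratios of 0.56 for Oas1a, 0.50 for Oasl2, 0.36 for Oas3, 0.25 for Oas2 and -0.30 for Oasl1. None of the 5 then reached 1.5-fold, which was counted after adding 1 CPM, so the place of Oas1a past it depended on how the states were made.

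The last question was whether the genes were read in the same cells. In cells drawn down to 5000 UMIs, every pair of the 5 genes was found together more often than the product of its shares, by 1.35 to 2.21 times (median 1.89) over the 10 pairs in Fcmr+/+ cells and by 1.32 to 1.87 times (median 1.63) in Fcmr-/- cells. Oas3 and Oasl2 were found together in 216 Fcmr+/+ cells against 98.0 from their shares, the highest ratio, at 2.21 (interval 1.92 to 2.51). Oas1a and Oasl1 had the lowest ratio in Fcmr+/+ cells, at 1.35, and the intervals held 1 for this pair (0.977 to 1.81) and for Oas1a with Oas2 (0.957 to 2.14). When the product was taken within each state, the medians were 1.30 and 1.24. Pearson correlations of the log UMIs over cells ran from 0.03 to 0.23 in Fcmr+/+ cells and from 0.04 to 0.29 in Fcmr-/- cells, weak in these sparse counts.

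Cells that held UMIs of at least 3 of the 5 genes made up 2.41% of Fcmr+/+ cells (153 cells, interval 2.05 to 2.82) and 6.04% of Fcmr-/- cells (483 cells, interval 5.53 to 6.58). The genes' shares taken as independent would give 0.667% and 2.41%. Of these cells, 40.5% in the Fcmr+/+ library and 46.0% in the Fcmr-/- library were in state 9. All 5 genes were found in 1 Fcmr+/+ cell and 14 Fcmr-/- cells.

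**Figure D4:**
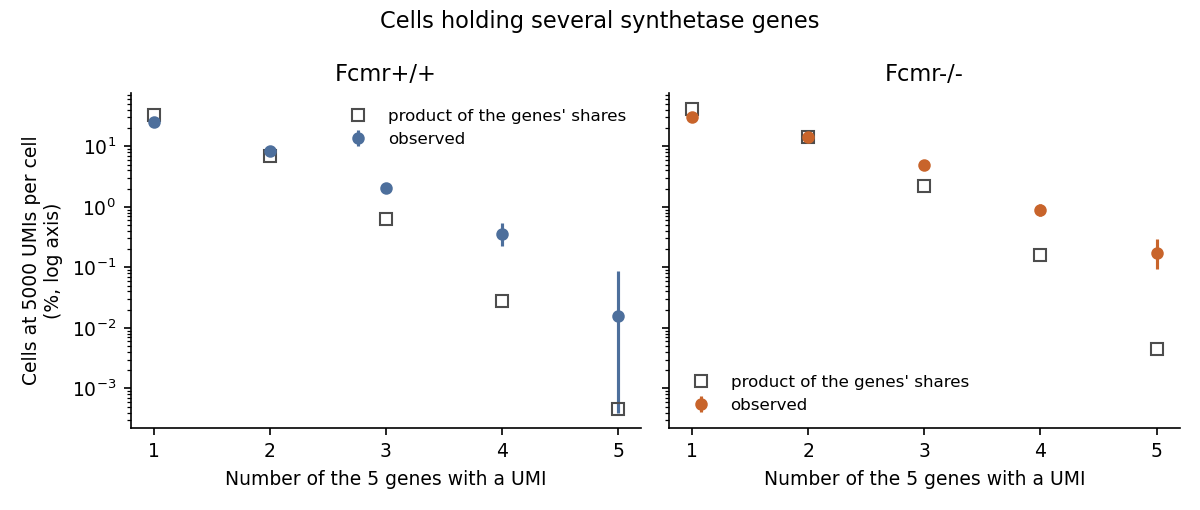
Share of cells (percent, log axis) in which 1 to 5 of the synthetase genes had a UMI, after drawing each cell down to 5000 UMIs, in the Fcmr+/+ library (left) and the Fcmr-/- library (right). Filled points are observed shares with exact 95% intervals and open squares the product of the genes' shares; from 3 genes upward the points lie above the squares, at 2.03% against 0.639% for 3 genes in Fcmr+/+ cells.

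Across the 21 groups of state and library with at least 50 cells, the members' levels were correlated to different degrees. These correlations are across groups that share libraries and are given as descriptions. Oas3 and Oasl2 were most alike, with a Pearson r of 0.97 between their log2 levels, and Oas1a and Oasl1 least, with 0.54. The next lowest pair was Oas1a with Oas2, at 0.80. Among 5252 genes with at least 20 CPM, the summed family was most like Parp14 (r 0.97), Rtp4 (0.97), Herc6 (0.96), Xaf1 (0.96) and Sp140 (0.96). For single members the nearest genes were Rnf213 and Trim30a for Oas1a, Sp100 and Rtp4 for Oas2, Phf11b and Parp14 for Oas3, and Rtp4 and Parp14 for Oasl2. For Oasl1 they were Ifit3 (r 0.97) and Ifih1 (r 0.95).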

How the data were processed

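The authors mapped reads to GRCm38 with Cell Ranger and deposited, for each cell, unnormalized UMI counts of every gene. Per the submitters' processing notes, Seurat 2.1.0 was their clustering tool. The study's limits were applied here: 200 to 7000 genes and at most 30% mitochondrial UMIs per cell. Levels (CPM) are the UMIs of a gene per 1000000 UMIs of a group of cells, with 1 CPM added before log2 ratios. The libraries kept 128408544 UMIs (Fcmr+/+) and 124630621 UMIs (Fcmr-/-). Intervals at 95% are Poisson for levels, conditional binomial for ratios, Clopper-Pearson for shares and Newcombe for their difference, and cover counting error only. Each genotype had 1 library, so no test was made. States came from Seurat 5.3.0 in R 4.3.3 (10 principal components, 30 neighbors, Louvain resolution 0.8, 1336 variable genes less 4 Oas genes). A state was named only where at least 3 listed markers were among its 50 leading genes. No doublet caller was run. Drawing down used no replacement. The other calculations used Python 3.11.15 with numpy 2.4.6, scipy 1.17.1 and pandas 2.3.3, and were tested on simulated data.

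The genes, lists and comparisons were chosen with earlier results of these data known. Named were the 5 synthetase genes, the other Oas genes, genes that act on the adenylate chains or beside them, the highest and lowest genes of the remaining lists, and the genes most like the members over states (the 5 nearest to their sum and the 2 nearest to each). The leading 3 genes of each state, and Fcmr, Mertk and Fcgr1 as checks, were named too. Ifng, and Ifit1, Ifit3, Ifnb1 and Irf7 within states, were added after their values were seen. Some genes of the lists are not reported here. Alternatives covered the pseudocount, scaling, the limits on cells, depth, shared barcodes, T and NK cell markers, drawing down and clustering. Setting the mix of states equal, leaving out the type I interferon-high state, and the subsets of that state by depth or by Ifnb1 were added after the data were seen.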

Additional observations from a re-analysis of the deposited data

Results flagged for a closer look

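Oasl1, the relative without synthetase activity, differed between the libraries in opposite directions in different states. In state 5, the dividing cells, its log2 ratio of Fcmr-/- to Fcmr+/+ was 0.47, with 18.6 CPM in Fcmr+/+ cells and 26.3 CPM in Fcmr-/- cells. In state 9, the type I interferon-high cells, it was -0.90, with 309 and 165 CPM. The intervals of the ratios, 1.23 to 1.61 and 0.489 to 0.586, were apart, and each covers counting error only. With 1 library per genotype, the difference between the states was not tested. Beside it, the median depth was 28064 UMIs in Fcmr+/+ and 23990 UMIs in Fcmr-/- cells of state 5, and 9876 and 8396 UMIs in state 9. Their part in the result was not tested. Within state 9 the ratio was 0.540 in cells with 10000 to 20000 UMIs, and no such ratio is given for state 5.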

How the results depend on the processing

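No paired analysis was possible because each genotype had 1 library and the labels give no replicate numbers. The direction of the family's difference was the same under the 11 alternatives tried. Its size moved when cells were limited by depth and when the mix of states was changed. Median depth differed between states, from 8698 UMIs in state 9 to 26288 UMIs in state 5. The part of depth apart from the mix of states was not tested. In cells with 10000 to 20000 UMIs the median log2 ratio of the 5 genes was 0.65 (0.87 over all cells), that of their sum 0.51 (0.73 over all cells), and the difference in cells with any member 12.6 points. With the mix of states set equal the values were 0.46 and 0.31, and 1 gene was at least 1.5-fold higher, with no share of all genes counted. Without the type I interferon-high state the values were 0.78 and 0.66. Oasl1 changed sign, to -0.078 in cells with 10000 to 20000 UMIs and -0.32 with the mix of states set equal. The other 4 genes stayed higher in Fcmr-/- cells under these alternatives. Without drawing down, the difference in cells with any member was 7.61 points, and median co-detection was 1.52 in Fcmr+/+ and 1.41 in Fcmr-/- cells. Within states co-detection was 1.30 and 1.24. The share of gene and state pairs higher in Fcmr-/- cells lay between 68.9% and 78% over the clusterings and depths tried. With fewer than 100 UMIs in at least 1 library, as for Oas1a and Oas2 in states 6, 7, 10 and 11, counting error alone left wide intervals.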

Other observations

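Cells that held a UMI of Ifnb1, which encodes interferon beta, were compared with the other cells of their library, a comparison chosen after values were seen. There were 176 such cells in the Fcmr+/+ library and 89 in the Fcmr-/- library. The members did not follow these cells alike. Oasl1 had 121 CPM (interval 110.3 to 132) in Fcmr+/+ cells with an Ifnb1 UMI and 27.6 CPM in those without, and in Fcmr-/- cells 148 CPM (interval 129 to 170) and 33.4 CPM. Oasl2 had 126 against 49.97 CPM in Fcmr+/+ cells and 241 against 94.99 CPM in Fcmr-/- cells.

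Oas1a, Oas2 and Oas3 differed less between these cells. In the Fcmr+/+ library Oas1a had 10.4 CPM with an Ifnb1 UMI and 10.1 CPM without, and Oas3 17.2 and 16.9 CPM, with overlapping intervals. In the Fcmr-/- library Oas1a had 22.7 and 19.4 CPM and Oas3 46.1 and 35.2 CPM, the latter with intervals of 35.6 to 58.8 and 34.1 to 36.2. Oas2 had 16.5 CPM (interval 12.7 to 21.0) against 11.1 CPM (interval 10.5 to 11.7) in Fcmr+/+ cells. In Fcmr-/- cells Oas2 had 22.7 CPM (interval 15.54 to 32.1) against 14.8 CPM (interval 14.1 to 15.48). The Oas2 intervals were apart in both libraries, narrowly so in Fcmr-/- cells. The cells with and without an Ifnb1 UMI were not matched for state. Each synthetase gene was highest in state 9. Ifnb1 had 107 CPM in Fcmr+/+ and 45.4 CPM in Fcmr-/- cells of this state, against 10.3 and 3.97 CPM over all cells. Of the 220 Fcmr+/+ and 642 Fcmr-/- cells of state 9, 197 and 611 held no Ifnb1 UMI. The part of state in the differences of any member was not tested. Median depth was 18909 UMIs in Fcmr+/+ cells with an Ifnb1 UMI and 17929 UMIs in the others, and 11681 and 12914 UMIs in the Fcmr-/- library.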
